A study of Mus musculus with 18 samples.

Results

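Sham-operated cortex that had received an adeno-associated virus (AAV) with a short hairpin RNA (shRNA) against Tiparp was compared with sham-operated cortex that had received a scramble shRNA. The comparison took the 6 sham libraries of the 18 in the series, chosen by their labels, and 13349 genes with at least 1 FPKM (fragments counted per unit of transcript length and of sequencing depth) in at least 3 of the 6. The tissue was ipsilateral cortex, and the animals were C57BL/6J males, 8 to 10 weeks of age and 24.0 to 26.0 g in weight, whose strain field reads C57BL/6. Each animal had an injection of virus into the left lateral ventricle 4 weeks before sham surgery, so the controls also carry an AAV and an shRNA. Sham_C1, Sham_C2 and Sham_C3 are labelled with the control shRNA (AAV-SYN-shRNA-Con) and Sham_T1, Sham_T2 and Sham_T3 with the one against Tiparp. The other 12 libraries were taken 24 h or 28 d after transient occlusion of the middle cerebral artery and are used below only to show where the sham arms differ from them. The synapsin promoter of the virus is active in neurons, while whole cortex also holds RNA of glia, vessels and blood, and how many cells were transduced is not given in the sources used here. Whether each library is a different animal is not stated in the labels, so a p-value here reflects only how much these libraries vary, and neither the hour of death nor the time from sham surgery is given. In bulk tissue fewer cells of a type and less RNA per cell cannot be told apart.

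Tiparp, also called PARP7, transfers single ADP-ribose units to proteins and is induced by the aryl hydrocarbon receptor, whose activity it restrains. Most differences between the sham arms were in genes of other families. Glucocorticoids, the adrenal steroids that follow stress and the daily cycle, bind a receptor that moves into the nucleus and acts on many genes in glia, vessels and neurons, among them Fkbp5, Tsc22d3 and Sgk1. Because these genes follow the circulating hormone within hours, they are widely read as markers of steroid exposure in brain. Oligodendrocytes make myelin and much of the transferrin of the brain, and the choroid plexus, which lies within the ventricles, makes transthyretin.

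Tiparp (ENSMUSG00000034640) was at 4.45, 4.76 and 3.77 FPKM in the Sham_C libraries, in the order of their numbers as throughout, and at 4.17, 4.95 and 4.57 FPKM in the Sham_T libraries. The groups overlapped, and the Sham_T mean was 105% of the Sham_C mean. The difference, Sham_T minus Sham_C on the log2(FPKM + 1) scale that all differences below use, was 0.06 (exact two-sided permutation p = 0.6, with 0.1 the smallest that 3 libraries against 3 allow), and it was -0.01 without Sham_C3. Sham_C and Sham_T below therefore name the libraries as labelled, and no direction below is tied to a measured loss of Tiparp.

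The libraries differed in marker genes of other tissue. FPKM totals were 393573 to 424157, and 13079 to 13281 genes reached 1 FPKM. FPKM holds no read totals, so the depth itself is unknown, and a rough relative value from the spacing of the lowest values was 0.99 to 1.05 times that of Sham_C1. Pearson's r across genes was 0.990 to 0.992 within the groups. Sham_T1 and Sham_T2 stood apart in choroid plexus genes, with transthyretin (Ttr) at 624 and 501 FPKM against 7.39 to 13.4 FPKM in the other 4. Sham_T3 stood apart in striatal genes, whose 13 markers summed to 358 FPKM against 138 to 218 FPKM in the other 5, and in hemoglobin genes, at 4.55 FPKM against 14.1 to 69.8 FPKM.

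Between the sham arms 28 genes changed, 11 higher and 17 lower in Sham_T (limma adjusted p under 0.05), which is 0.21% of the genes tested (0.0824% higher and 0.127% lower). At an unadjusted p under 0.05 there were 1715 genes. The values of 2599 genes, or 19.5%, did not overlap between the groups (10.6% higher and 8.85% lower in Sham_T). The median difference over all tested genes was 0.01. The count rested on single libraries: it was 17 without Sham_C1, 5 without Sham_C2, 12 without Sham_T1 and 52 without Sham_T3. With all 18 libraries sharing 1 estimate of the spread none of the genes passed, and 401 had an unadjusted p under 0.05. Slc2a3, Sult1a1, Chd3os and Fbxo41 passed in all 6 fits that left out a library, Plin4, Fkbp5 and Rnf144a in 5 of them, and Zfp639, Gjb6 and Fam109a in none of them. Of the 28 genes, Plin4, Gabrr2, Rtp1 and Pla2g3 were under 1 FPKM in at least 2 Sham_T libraries and Fam109a in all Sham_C libraries, so these entered the test through the group in which they were high.

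**Figure D1:**
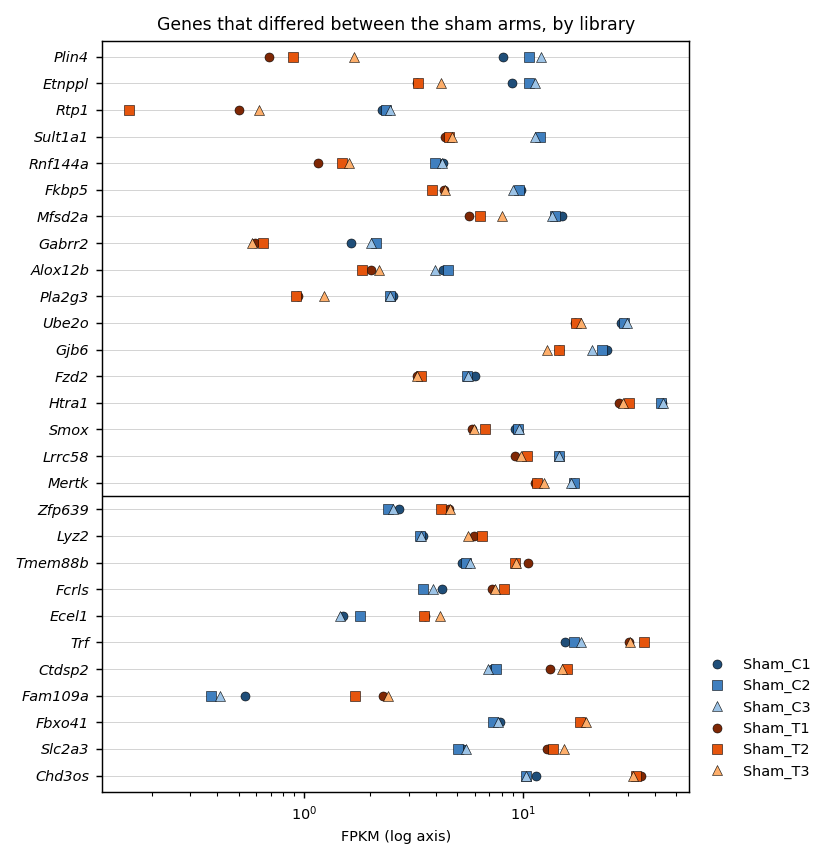
FPKM on a log axis of the 28 genes that passed between the sham arms, 1 point per library, with the 17 lower in Sham_T above the line and the 11 higher below it, each ordered by the log2 difference. No gene shown has overlapping groups, and Plin4 runs from 8.07 to 12 FPKM in Sham_C and from 0.687 to 1.69 FPKM in Sham_T.

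The genes of the glucocorticoid-responsive list were lower in Sham_T throughout. All 31 members of the list had a lower mean in Sham_T, as did 46% of all tested genes. Of the 31, 30 passed the filter on low values. At the threshold over all genes 3 of these fell, Plin4, Sult1a1 and Fkbp5, against 0.127% of all tested genes. In 24 of the 30 the groups did not overlap, against 8.85% of all tested genes in that direction. The median difference was -0.40 over the 30, over all 31, and over the 27 members with at least 1 FPKM in every sham library, beside 0.01 over all genes. The list was written with earlier results of these libraries known, so its direction is a description of them and not independent evidence.

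Plin4 (ENSMUSG00000002831), a perilipin that coats lipid droplets, was at 8.07, 10.6 and 12 FPKM in the Sham_C libraries and at 0.687, 0.882 and 1.69 FPKM in the Sham_T libraries. Its highest Sham_T library lay far below its lowest Sham_C library, and the mean was 10.6% of that of Sham_C. The log2 difference was -2.44 (SE 0.20, limma adjusted p = 0.0119). The phenol sulfotransferase Sult1a1 (ENSMUSG00000030711) was at 11.7, 11.9 and 11.3 FPKM in Sham_C and at 4.38, 4.59 and 4.72 FPKM in Sham_T. Both groups were tight, and the difference was -1.18 (SE 0.06, limma adjusted p = 0.00089), the lowest adjusted p here, shared with Chd3os and Fbxo41. Fkbp5 (ENSMUSG00000024222), a co-chaperone that lowers the hormone affinity of the glucocorticoid receptor and is itself induced by it, was at 9.76, 9.53 and 8.99 FPKM in Sham_C and at 4.34, 3.84 and 4.4 FPKM in Sham_T. The Sham_T mean was 44.5% of the Sham_C mean (log2 difference -1.01, SE 0.07, limma adjusted p = 0.00561). Gene models on the other strand overlap Plin4 (Hdgfl2), Sult1a1 (Sgf29) and Fkbp5 (AC154912.1 and Gm22146). Models on the same strand also overlap Fkbp5 (AC154912.5 and AC154912.3), and strand does not tell these apart. The libraries kept strand, but whether the authors' quantification used it is not given in the sources used here.

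Another 5 members had an adjusted p between 0.05 and 0.1, and the share of all tested genes in that range was not examined. The cell cycle inhibitor Cdkn1a was at 14.9, 17.8 and 14.2 FPKM in Sham_C and at 5.9, 7.97 and 7.96 FPKM in Sham_T (log2 difference -1.01, limma adjusted p = 0.0533). Arrdc2, an arrestin-domain protein, was at 6.16, 6.1 and 6.64 FPKM against 2.4, 3.46 and 3.33 FPKM (-0.86, adjusted p = 0.0542). Hif3a, a hypoxia-inducible factor subunit, was at 4.72, 4.95 and 5.27 FPKM against 1.68, 1.74 and 2.78 FPKM (-0.98, adjusted p = 0.0705). In each of these the groups were well apart, and Sham_T1 was the lowest library. Tsc22d3, the leucine zipper protein GILZ that mediates anti-inflammatory steroid action, was at 26.5, 23.5 and 20 FPKM against 13.4, 14.7 and 12.3 FPKM (-0.74, adjusted p = 0.0845). Nfkbia, the inhibitor of NF-kappaB, was at 9.41, 10.3 and 11.4 FPKM against 7.13, 7.16 and 6.35 FPKM (-0.53, adjusted p = 0.0997). These 2 immune regulators did not overlap between the groups either.

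The remaining members were lower by less or varied more between libraries. The mTOR inhibitor Ddit4 (-0.56), the transcription factor Klf15 (-0.55), the lipase inhibitor Angptl4 (-0.47), the transcription factor Cebpd (-0.44), the pyruvate dehydrogenase kinase Pdk4 (-0.41), the metallothionein Mt1 (-0.40), the receptor feedback inhibitor Errfi1 (-0.36) and the kinase Sgk1 (-0.34) did not overlap between the groups and did not pass. Zbtb16, a zinc finger repressor, was at 11.4, 12.3 and 7.95 FPKM in Sham_C and at 5.7, 4.24 and 8.03 FPKM in Sham_T (-0.74, adjusted p = 0.275). Sham_C3 and Sham_T3 met in this gene. Txnip, Fam107a, Mt2, Dusp1 and Nedd9 overlapped as well, and the differences of Mt2, the phosphatase Dusp1 and Nedd9 were -0.06, -0.04 and -0.02. By library, the median of the 30 members stood at -0.01, 0.01 and -0.03 from the Sham_C mean in Sham_C1, Sham_C2 and Sham_C3, and at -0.44, -0.39 and -0.46 in Sham_T1, Sham_T2 and Sham_T3. Sham_T3 was thus as low as the other 2 Sham_T libraries.

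**Figure D2:**
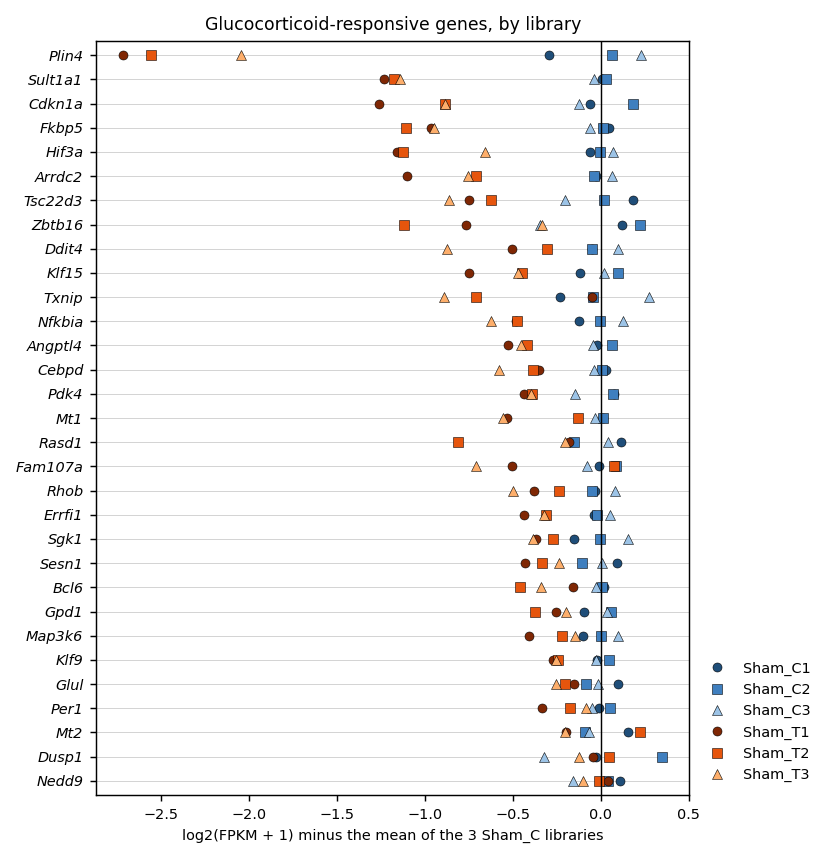
Each point is the log2(FPKM + 1) of a gene in a library minus the mean of the 3 Sham_C libraries, for the 31 members of the glucocorticoid-responsive list, ordered by the Sham_T mean. The Sham_T points lie left of 0 for most members, from -2.44 on average for Plin4 to near 0 for Dusp1 and Nedd9.

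The promoters of the list were searched for the palindrome that the glucocorticoid receptor binds, as its textbook binding sequence. The search covered the 250 bases before each start in the RefSeq promoter table (GRCm38.p6) for GNACANNNTGTNC, which reads the same on both strands, and for the stricter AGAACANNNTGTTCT, which contains it. Both motifs were picked after the expression values were seen. Of the 31 list genes 26 have an entry, and 5 of them (19.2%) hold the first motif, against 119 of 27025 genes (0.44%). The stricter one was in 1 of the 26 and in 3 of all 27025 genes (0.0111%). Because the list names genes that respond to glucocorticoids, these shares describe the list and not the difference between the sham arms. None of the 20 genes that passed between the sham arms and have an entry held either motif in this window, Plin4, Sult1a1 and Fkbp5 included. The 5 stretches are shown to let the palindromes be compared, 5′ to 3′ on the strand of the gene, with the motif in capitals:
Sgk1 (chr10:21993678-21993738, + strand): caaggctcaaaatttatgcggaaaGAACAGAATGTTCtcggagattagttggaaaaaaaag
Mt1 (chr8:94178971-94179031, + strand): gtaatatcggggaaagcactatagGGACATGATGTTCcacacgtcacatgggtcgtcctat
Fam107a (chr14:8309861-8309921, - strand): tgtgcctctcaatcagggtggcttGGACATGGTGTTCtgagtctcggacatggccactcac
Map3k6 (chr4:133240613-133240673, + strand): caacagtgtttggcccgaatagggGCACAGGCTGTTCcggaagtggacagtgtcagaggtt
Txnip (chr3:96557761-96557821, + strand): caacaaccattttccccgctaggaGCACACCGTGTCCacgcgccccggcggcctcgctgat

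The capitals end 175 bases before the start in Sgk1, 81 in Mt1, 107 in Fam107a, 168 in Map3k6 and 159 in Txnip. Sgk1, a kinase that regulates ion transport and is the holder of the stricter motif, was at 18.3, 20.4 and 22.9 FPKM in Sham_C and at 15.6, 16.8 and 15.4 FPKM in Sham_T. Mt1, which binds zinc and copper, was at 126, 126 and 122 FPKM against 85.9, 114 and 84.6 FPKM. Neither overlapped between the groups, and neither passed. Fam107a, an actin-associated protein of stress responses, was at 157, 168 and 150 FPKM against 111, 167 and 96.2 FPKM, with Sham_T2 inside the Sham_C range. Map3k6, a stress kinase, was under the filter at 0.905, 1.04 and 1.18 FPKM against 0.536, 0.747 and 0.843 FPKM. Txnip, the thioredoxin inhibitor, was at 4.87, 5.69 and 7.32 FPKM against 5.65, 3.21 and 2.72 FPKM and overlapped. A match is a description of the letters and not a measured binding site.

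The receptors and their partners lay on both sides of 0. Nr3c1, the glucocorticoid receptor itself, was at 9.3, 8.65 and 8.77 FPKM in Sham_C and at 9.69, 9.92 and 9.54 FPKM in Sham_T, slightly higher and without overlap (0.11, limma adjusted p = 0.457). The list of steroid receptors, chaperones and cofactors had 14 tested members, none of which passed, and a median of 0.00, with 5 lower and 2 higher without overlap (8.85% and 10.6% of all genes). The cofactors Ncoa1 (-0.16), Ncoa2 (-0.15) and Ncor1 (-0.16) were among the 5. Annotated GO terms gave no such pattern either. Of 37 tested genes of the term response to glucocorticoid 14 were lower and 1, Sult1a1, passed, against 0.21% of all genes (median 0.03). The medians of the 14 genes of the cellular response to glucocorticoid stimulus and the 12 genes of the response to corticosterone were -0.07 and 0.09. Of 17 circadian clock genes, whose transcripts follow the hour of death, none passed, the median was -0.16, and 3 were lower and 1 higher without overlap (8.85% and 10.6% of all genes). Of 20 immediate early genes, which follow neuronal activity and handling, none passed, all 20 overlapped between the groups, and the median was -0.09.

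Astrocyte genes were split. Of 15 astrocyte markers, all tested, 2 fell and none rose (against 0.127% and 0.0824% of all genes), with a median of -0.01 over the list. Without overlap 3 were lower and 2 higher (against 8.85% and 10.6% of all genes). Etnppl (ENSMUSG00000019232), a phospholyase that breaks down phosphoethanolamine in astrocytes, was at 8.84, 10.6 and 11.3 FPKM in Sham_C and at 3.28, 3.32 and 4.23 FPKM in Sham_T (log2 difference -1.29, SE 0.12, limma adjusted p = 0.016). The gap junction gene Gjb6, connexin 30, was at 24.1, 22.8 and 20.6 FPKM against 14.6, 14.5 and 12.8 FPKM (-0.65, SE 0.08, adjusted p = 0.0478). The growth factor receptor Fgfr3 was also lower without overlap and did not pass (-0.43, adjusted p = 0.275). The water channel Aqp4, at 18.3, 14.9 and 13.5 FPKM against 23.3, 20.9 and 18.6 FPKM (0.41, adjusted p = 0.276), and the amino acid exchanger Slc7a10 (0.27, adjusted p = 0.179) lay the other way. The glutamate transporters Slc1a2 and Slc1a3 differed by 0.02 and -0.01. Of 17 reactive astrocyte genes only 5 passed the filter, none of them changed, and Gfap was at 35.6, 29.9 and 31.7 FPKM against 49.5, 40.2 and 27.5 FPKM.

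Endothelial markers had lower means, most of them with overlap, and mural markers went both ways. All 8 tested of 12 endothelial markers had a lower mean in Sham_T (median -0.13), as did 46% of all tested genes. Of the 8, 1 fell, against 0.127% of all genes. Mfsd2a (ENSMUSG00000028655), the transporter that carries docosahexaenoic acid across the blood-brain barrier, was at 15, 13.9 and 13.6 FPKM in Sham_C and at 5.66, 6.35 and 7.99 FPKM in Sham_T (log2 difference -0.99, SE 0.11, limma adjusted p = 0.0332). The Sham_T mean was 47.2% of that of Sham_C. Slc2a1, the glucose transporter GLUT1 of the barrier, was at 16.4, 15.9 and 15.2 FPKM against 10.9, 12.2 and 12.6 FPKM and did not pass (-0.38, adjusted p = 0.125). The other 6 overlapped between the groups, the junction gene Cldn5 among them at 1.52, 1.2 and 1.38 FPKM against 1.18, 1.17 and 1.44 FPKM. None of 5 tested mural cell genes passed, 3 were higher and 2 lower, and their median was 0.11. The 134 tested genes of the GO term angiogenesis had a median of -0.01.

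Other enzymes, a protease and a receptor were among the genes that fell. Alox12b, a lipoxygenase, was at 4.3, 4.52 and 3.94 FPKM in Sham_C and at 2.02, 1.84 and 2.2 FPKM in Sham_T (-0.80, limma adjusted p = 0.0188). Pla2g3, a secreted phospholipase, was at 2.53, 2.45 and 2.45 FPKM against 0.931, 0.91 and 1.23 FPKM (-0.78, adjusted p = 0.0235), and the gene Inpp5j overlaps it on the other strand. Htra1, a secreted serine protease, was at 43, 42.8 and 43.4 FPKM against 27.5, 30.3 and 28.6 FPKM (-0.56, adjusted p = 0.0188). The spread of Htra1 in Sham_C was under 1 FPKM, and its model overlaps Fgfr2 on the other strand. The Wnt receptor Fzd2 was at 6.03, 5.53 and 5.62 FPKM against 3.28, 3.42 and 3.27 FPKM (-0.64, adjusted p = 0.0188). Smox, which oxidises spermine, was at 9.18, 9.42 and 9.58 FPKM against 5.85, 6.7 and 5.93 FPKM (-0.54, adjusted p = 0.0478). Of the 307 tested genes of the GO term lipid metabolic process 1 passed, against 0.21% of all genes (median 0.02). In the list of lipid droplet and lipid handling genes none of the 13 tested passed and the median was -0.06. Within it the triglyceride lipase Pnpla2 was at 9.38, 14 and 11.5 FPKM against 7.32, 7.24 and 5.5 FPKM (-0.71, adjusted p = 0.179). The fatty acid binding protein Fabp7 lay the other way, at 5.47, 4.1 and 3.36 FPKM against 10.4, 8.79 and 7.47 FPKM (0.91, adjusted p = 0.134).

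Oligodendrocyte and myelin genes were higher in Sham_T. Of 16 markers, all tested, 15 had a higher mean and 2 rose (against 0.0824% of all genes). Without overlap 8 were higher (against 10.6% of all genes), and the median was 0.34. Trf (ENSMUSG00000032554), transferrin, the iron carrier that oligodendrocytes make in brain, was at 15.6, 17 and 18.3 FPKM in Sham_C and at 30.3, 35.7 and 30.6 FPKM in Sham_T (log2 difference 0.89, SE 0.09, limma adjusted p = 0.0188). Tmem88b was at 5.25, 5.49 and 5.68 FPKM against 10.5, 9.18 and 9.25 FPKM (0.71, SE 0.07, adjusted p = 0.0188). The myelin membrane protein Opalin was at 4.13, 5.61 and 6.2 FPKM against 10.6, 11.2 and 7.74 FPKM (0.78, adjusted p = 0.176). Mag, a myelin adhesion protein, was at 12.6, 15.5 and 17.9 FPKM against 23.4, 24.9 and 21.2 FPKM (0.58, adjusted p = 0.176), and the phosphodiesterase Cnp at 26.1, 29.2 and 30.1 FPKM against 40.7, 44.8 and 35.8 FPKM (0.49, adjusted p = 0.146). The myelin glycoprotein Mog (0.46) and the connexin Gjc3 (0.35) also did not overlap and did not pass. The major myelin genes Mbp (0.09) and Mobp (0.18) overlapped between the groups. The 16 markers stood at a median of -0.16, 0.03 and 0.14 from the Sham_C mean in Sham_C1, Sham_C2 and Sham_C3. In Sham_T1, Sham_T2 and Sham_T3 they stood at 0.46, 0.48 and 0.24. Of 10 precursor markers none passed and the median was 0.13. Bcas1, expressed as precursors begin to myelinate, was at 27.1, 28.2 and 27.8 FPKM against 42.3, 48.6 and 30.4 FPKM (0.51, adjusted p = 0.279). The share of white matter in each piece of cortex was not measured, and its part in these values was not tested.

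Few microglial and immune genes differed. Of 14 homeostatic microglia markers 1 rose, against 0.0824% of all genes, and the median was 0.14. Fcrls, a receptor-like protein of resident microglia, was at 4.27, 3.49 and 3.87 FPKM in Sham_C and at 7.18, 8.13 and 7.43 FPKM in Sham_T (log2 difference 0.82, SE 0.08, limma adjusted p = 0.0188). The complement gene C1qb (0.25) was higher without overlap and did not pass. Lyz2, the lysozyme of macrophages and microglia, was at 3.5, 3.37 and 3.41 FPKM against 5.96, 6.46 and 5.58 FPKM (0.66, adjusted p = 0.0209). Markers of blood-derived and border macrophages were low, with 11 of 13 below the filter, among them the monocyte receptor Ccr2 at no more than 0.0382 FPKM. None of the 12 tested of 16 disease-associated microglia genes passed, 5 were higher without overlap (against 10.6% of all genes) and the median was 0.19. Trem2 was at 2.35, 2.26 and 2.55 FPKM against 2.72, 3.52 and 3.09 FPKM, its signalling partner Tyrobp at 12, 14.4 and 14.2 FPKM against 17.5, 19.1 and 16.9 FPKM, and Lpl at 0.804, 0.933 and 0.865 FPKM against 1.36, 1.12 and 1.7 FPKM. Lpl is among the 5 and was under 1 FPKM in all Sham_C libraries, so it entered the test through the group in which it was high. Mertk, a receptor through which astrocytes and microglia engulf dying cells, fell from 17, 17 and 16.5 FPKM to 11.3, 11.6 and 12.5 FPKM (-0.48, SE 0.06, adjusted p = 0.0439). Interferon response genes were mostly under the filter, and none of 7 tested passed (median 0.13). Ifitm3 was the farthest of these that did not overlap, at 2.57, 2.46 and 2.96 FPKM against 3.45, 4.23 and 3.86 FPKM (0.40, adjusted p = 0.179). The 6 tested genes of class I antigen presentation were all higher by 0.05 to 0.30, and none passed. In Sham_T3 the fractalkine receptor Cx3cr1 of microglia was at 1.68 FPKM against 8.58 to 10.9 FPKM in the other 5 libraries, while Csf1r, P2ry12 and Tmem119 were not low there.

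Excitatory neuron markers were mostly slightly lower in Sham_T, and few neuronal genes passed. Of 13 tested excitatory neuron and layer markers none passed and 11 were lower, against 46% of all genes. Without overlap 6 were lower (against 8.85% of all genes), and the median was -0.15. The vesicular glutamate transporter Slc17a7 was at 137, 131 and 131 FPKM in Sham_C and at 111, 120 and 114 FPKM in Sham_T (-0.21, limma adjusted p = 0.219). The kinase Camk2a was at 445, 427 and 413 FPKM against 361, 385 and 357 FPKM (-0.22, adjusted p = 0.219). None of the 18 synaptic genes (median -0.06) and none of the 14 inhibitory neuron and neuropeptide genes (median 0.12) passed. Of 18 glutamate and GABA receptor genes 1 changed, against 0.21% of all genes. Gabrr2, the rho 2 subunit of GABA receptors, fell from 1.63, 2.13 and 2.02 FPKM to 0.591, 0.646 and 0.575 FPKM (-0.86, SE 0.09, adjusted p = 0.0209). The metabotropic glutamate receptor Grm3 was at 13.4, 13.9 and 12.6 FPKM against 18.9, 22.3 and 19.3 FPKM (0.56, adjusted p = 0.0669). Rtp1, a receptor-transporting protein known from olfactory neurons, fell from 2.25, 2.36 and 2.45 FPKM to 0.502, 0.157 and 0.618 FPKM (-1.25, adjusted p = 0.0219). Ecel1, a peptidase induced in injured neurons, rose from 1.5, 1.8 and 1.46 FPKM to 3.55, 3.53 and 4.15 FPKM (0.88, adjusted p = 0.0188).

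Some of the genes with the smallest spread within the sham groups took 2 levels across the whole series. Over all 18 libraries the widest gap between neighbouring values was over 30% of the range in 5 of the 28 genes, Slc2a3, Chd3os, Fam109a, Fbxo41 and Rnf144a, a measure chosen after their values were seen. The highest such gap among the others of the 28 was 28.9%, so the limit splits a continuous range. The share of all tested genes with such a gap was not examined, and the 28 were selected for sham groups that lie apart. Slc2a3 (ENSMUSG00000003153), the neuronal glucose transporter GLUT3, was at 5.32, 5.03 and 5.5 FPKM in Sham_C and at 12.9, 13.7 and 15.3 FPKM in Sham_T (log2 difference 1.25, SE 0.08, limma adjusted p = 0.00292). Outside sham it was at the low level in 3 libraries and at the high level in 9, with both levels within R24h_T and within R28d_C. No library had a value between 6.05 and 12.8 FPKM. Chd3os, a transcript named for the strand opposite Chd3, was at 11.4, 10.3 and 10.3 FPKM in Sham_C and at 34.6, 32.6 and 31.7 FPKM in Sham_T (1.55, SE 0.06, adjusted p = 0.00089), while the chromatin remodeller Chd3 differed by -0.09 (adjusted p = 0.511). Outside sham Chd3os was high in 4 of 12 libraries, from both arms. The F-box gene Fbxo41, a ubiquitin ligase subunit of neurons, was at 7.83, 7.31 and 7.65 FPKM against 18.8, 18.2 and 19.4 FPKM (1.20, SE 0.06, adjusted p = 0.00089), and 6 of the 12 other libraries were at the high level. At 24 h its levels followed the arms as in sham, with 4.72, 6.44 and 4.2 FPKM in R24h_C and 22.9, 14.6 and 20.9 FPKM in R24h_T, and at 28 d they mixed within both arms. Fam109a, a protein of endosomes, was at 0.534, 0.373 and 0.411 FPKM against 2.28, 1.7 and 2.4 FPKM (1.11, adjusted p = 0.0188), with 6 of 12 others high. Rnf144a, a ubiquitin ligase, fell from 4.29, 3.96 and 4.25 FPKM to 1.15, 1.48 and 1.6 FPKM (-1.10, SE 0.09, adjusted p = 0.0119), and 4 of 12 others were at its low level. Each of these 5 genes took both levels within at least 1 of the later groups.

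**Figure D3:**
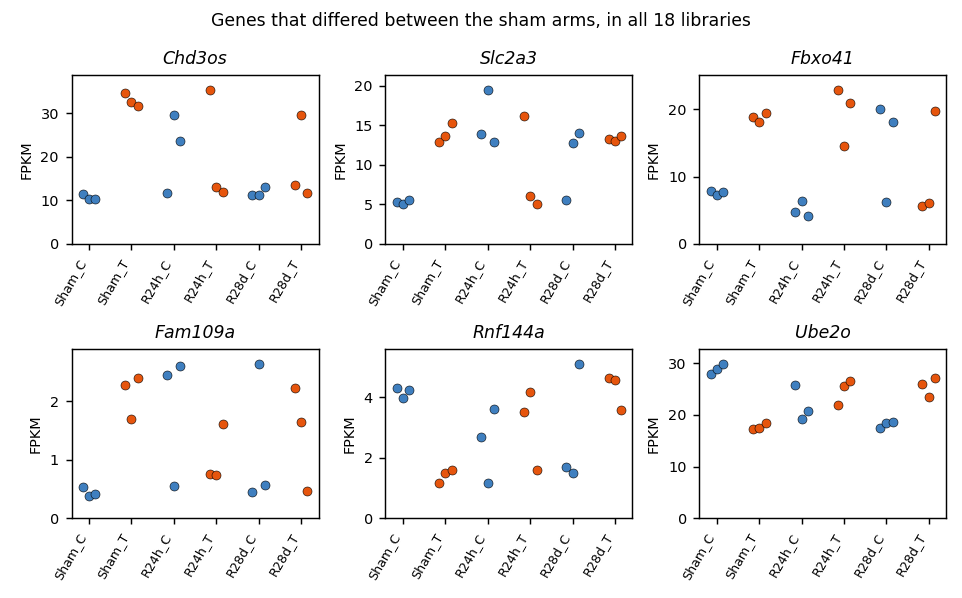
FPKM of 6 genes that passed between the sham arms, 1 point per library in the 6 groups of 3 (blue, control shRNA; orange, Tiparp shRNA; R24h and R28d are 24 h and 28 d after occlusion). Chd3os, Slc2a3, Fbxo41, Fam109a and Rnf144a take 2 levels, which the sham arms split cleanly and which mix within at least 1 later group in each gene (for Fbxo41 at 28 d and not at 24 h), while Ube2o is lower in Sham_T and higher in R28d_T than in the control group of the same condition.

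The rest of the passing genes came from several families. Ube2o (ENSMUSG00000020802), a large enzyme that both conjugates and ligates ubiquitin, was at 27.9, 28.9 and 29.8 FPKM in Sham_C and at 17.2, 17.4 and 18.4 FPKM in Sham_T (log2 difference -0.68, SE 0.06, limma adjusted p = 0.0119). Together with Rnf144a and Fbxo41 it made 3 of 17 genes of the ubiquitin list that changed, 2 lower and 1 higher, against 0.21% of all genes, and the median of that list was 0.01. That list, too, was written with earlier results known, and the GO term protein ubiquitination held the same 3 genes among 400 tested (median 0.00). The phosphatase Ctdsp2 rose from 7.18, 7.51 and 6.91 FPKM to 13.2, 15.9 and 15 FPKM (0.93, adjusted p = 0.012). Outside sham Ctdsp2 ran from 8.02 to 19.8 FPKM within R24h_C and from 5.67 to 17.9 FPKM within R24h_T. Its range was 6.57 to 16.5 FPKM within R28d_T and 5.98 to 10.4 FPKM within R28d_C. This gene thus also varied widely within later groups, although its widest gap did not exceed the limit of 30% used above. The zinc finger gene Zfp639 rose from 2.71, 2.41 and 2.55 FPKM to 4.56, 4.23 and 4.64 FPKM (0.62, adjusted p = 0.0239). Lrrc58, a leucine-rich repeat gene, fell from 14.6, 14.6 and 14.5 FPKM to 9.17, 10.4 and 9.81 FPKM (-0.53, adjusted p = 0.0335). Models on the other strand overlap Ube2o (Gm11742), Zfp639 (Gm37592), Rnf144a (4930549C15Rik) and Mertk (Gm14011). On the same strand models overlap Slc2a3 (Gm4482), Trf (Gm20425), Lrrc58 (Gm15725), Ctdsp2 (Mir26a-2 and Mir546), Rnf144a (Mir6538) and Mertk (Gm23172).

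Choroid plexus RNA was high in Sham_T1 and Sham_T2 and not in Sham_T3. All 14 choroid plexus markers were above every Sham_C library in Sham_T1 and in Sham_T2, at a median of 10.1 and 7.84 times the Sham_C mean, with a range of 2.8 to 54.5 times in Sham_T1. In Sham_T3 the median was 0.581 times, and 2 markers were above every Sham_C library. Ttr, the thyroid hormone carrier, was at 9.87, 13.4 and 11.1 FPKM in Sham_C and at 624, 501 and 7.39 FPKM in Sham_T (log2 difference 3.48, SE 1.55, limma adjusted p = 0.412), and the difference was -0.56 without Sham_T1 and Sham_T2. The potassium channel Kcnj13 was at 0.289, 0.444 and 0.344 FPKM against 4.92, 5.08 and 0.143 FPKM, and the tight junction gene Cldn2 at 0.0368, 0.0179 and 0.0349 FPKM against 1.03, 1.16 and 0.0182 FPKM. Enpp2, the lysophospholipase autotaxin, was at 32.3, 33.4 and 36.2 FPKM against 95, 99.7 and 37 FPKM. Only Ttr, Clic6 and Enpp2 passed the filter, and none of them passed the test. Ependymal genes followed the same libraries, with 5 tested members at a median of 0.61, 0.56 and -0.01 from the Sham_C mean in Sham_T1, Sham_T2 and Sham_T3. The part of this RNA in the differences above was not tested.

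**Figure D4:**
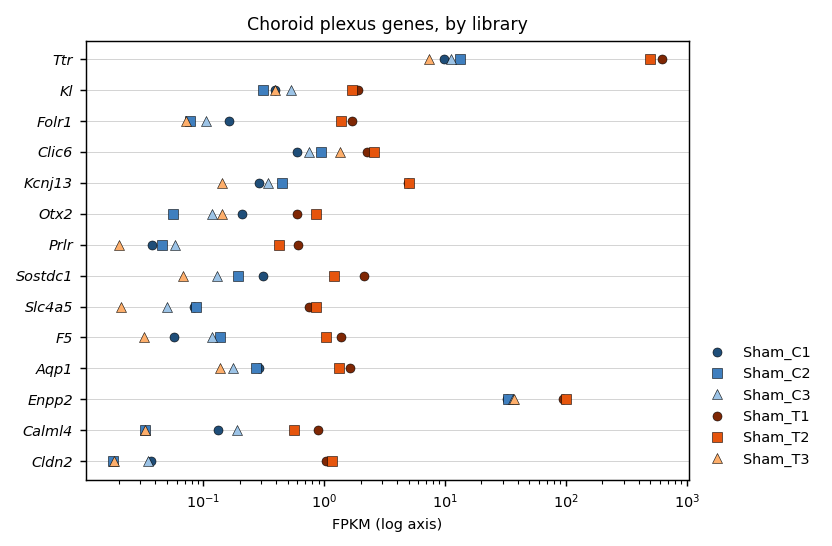
FPKM on a log axis of the 14 choroid plexus markers in the 6 sham libraries, 1 point per library. Sham_T1 and Sham_T2 lie right of the other 4 libraries in every gene, by 2.8 to 54.5 times the Sham_C mean in Sham_T1, while Sham_T3 lies among or left of Sham_C in most.

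Pituitary hormone genes were also uneven between libraries. Gh, growth hormone, was at 2.83, 1.49 and 4.92 FPKM in Sham_C and at 47.3, 115 and 5.27 FPKM in Sham_T (3.09, limma adjusted p = 0.293), and Prl, prolactin, at 0.739, 0.286 and 1.03 FPKM against 6.48, 25.8 and 1.21 FPKM (2.20, adjusted p = 0.337). Both are among the 10 largest differences that did not pass. The glycoprotein hormone subunit Cga, looked up after these values were seen, was at 3.19 FPKM in Sham_T2 and at no more than 0.347 FPKM in the other 5. The same genes were high elsewhere, with Gh at 114 FPKM in R28d_C3. Among the other large differences, the protocadherin Pcdhgb1 was at 2.02, 1.79 and 1.6 FPKM against 29.3, 54.9 and 1.48 FPKM. The chemokine Cx3cl1, the neuronal ligand of Cx3cr1, was at 144, 152 and 134 FPKM against 22.7, 136 and 14.8 FPKM. The ubiquitin-conjugating variant Ube2v1 was at 10.9, 9.57 and 63.2 FPKM against 63.6, 67.2 and 64.3 FPKM. In each of these at least 1 library lay with the opposite group or close to it.

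**Figure D5:**
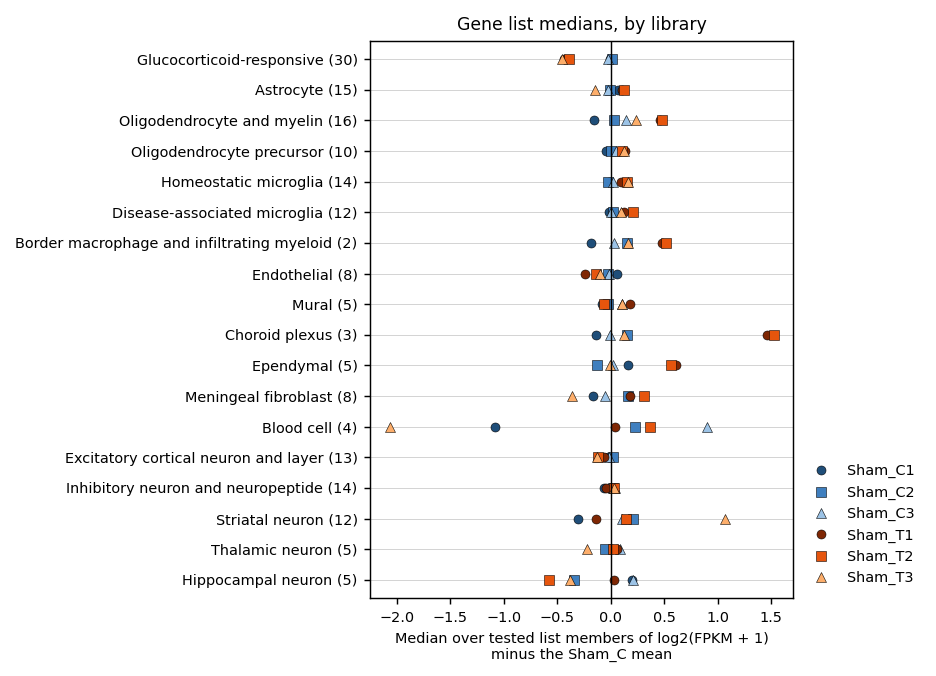
Each point is, for a library, the median over the tested members of a gene list (number in brackets) of log2(FPKM + 1) minus the Sham_C mean. The glucocorticoid-responsive list lies at -0.39 to -0.46 in all 3 Sham_T libraries. The choroid plexus and ependymal lists are high in Sham_T1 and Sham_T2 and the striatal list in Sham_T3, while the blood list is spread within both groups.

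The family of the targeted gene showed no difference that passed. Of 16 genes of the ADP-ribosyltransferase and PARP family 10 were tested, none passed, and the median was 0.02. Parp1, which builds poly(ADP-ribose) at DNA breaks, was at 12, 11.3 and 11.9 FPKM in Sham_C and at 11.1, 10.5 and 11.2 FPKM in Sham_T (-0.10, limma adjusted p = 0.523). Parp3 (-0.21) and the tankyrase Tnks (-0.09) were, like Parp1, lower without overlap, which is 3 of 10 members, against 8.85% of all genes. The untested 6, with the interferon-linked Parp9, Parp10 and Parp14 among them, overlapped between the groups. The aryl hydrocarbon receptor list had 7 tested genes of 12, all of which overlapped and none of which passed. The receptor gene Ahr was at 1.21, 1.31 and 0.977 FPKM against 0.89, 0.817 and 1.29 FPKM. Its classic targets were low everywhere, with Cyp1a1 at no more than 0.102 FPKM, Cyp1b1 at no more than 0.361 FPKM and Cyp1a2 listed at 0 in all 6 libraries.

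Metabolic and housekeeping lists were close to level. Of 15 cholesterol synthesis and uptake genes 12 were higher and none passed (median 0.09). Of 15 tested genes of glucose transport and glycolysis Slc2a3 alone passed, against 0.21% of all genes. Ldha, lactate dehydrogenase A, was at 33.6, 30.6 and 30.5 FPKM against 35.5, 40.7 and 36.9 FPKM (0.25, limma adjusted p = 0.267). Among 12 tested sulfotransferase and drug metabolism genes Sult1a1 alone passed, against the same 0.21%. The cytochrome Cyp2d22 was at 16.7, 16.3 and 17 FPKM against 13.1, 12.8 and 11.7 FPKM (-0.38, adjusted p = 0.0947). Of 13 mitochondrially encoded genes 12 were higher, 5 of them without overlap against 10.6% of all genes (median 0.11), of 19 ribosomal protein genes 14 were higher (median 0.06), and none in either list passed. Iron handling (0.01), nuclear respiratory chain (0.04) and heat shock (0.03) lists held no gene that passed. Among 1666 GO terms with 15 to 300 tested genes the medians ran from -0.19, for ventricular cardiac muscle tissue morphogenesis, to 0.14, for cytosolic large ribosomal subunit and cytoplasmic translation. The next lowest were cellular response to interferon-gamma and regulation of neuronal synaptic plasticity, both at -0.15. Of the 41 tested genes of the term myelination 23 were higher (median 0.03), and of the 11 of central nervous system myelination 8 were higher (median 0.18).

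The differences of the sham arms did not pass between the arms after ischemia. No gene passed between the arms at 24 h, where 1012 of 14018 genes had an unadjusted p under 0.05 (0% called by limma), or at 28 d, where 347 of 13779 did (0% called). These arms share no library with the sham comparison. Of the 17 genes lower in Sham_T, 10 of 15 tested were lower in the Tiparp arm at 24 h (median -0.05) and 14 of 17 at 28 d (median -0.07). Of the 11 higher in Sham_T, 9 were lower at 24 h (median -0.43) and 9 higher at 28 d (median 0.37). Without overlap at 24 h, 1 of these 11 was higher, beside 3.23% of all genes there, and 1 of the 15 was lower, beside 8.78%. By the mean alone, 63.6% of all genes had a lower mean in the Tiparp arm at 24 h and 45% at 28 d. The glucocorticoid-responsive list had 29 of 31 members lower at 24 h with a median of -0.58, beside -0.08 over all genes tested there, and 15 of 30 lower at 28 d with a median of 0.01. Other lists were lower at 24 h as well, such as the reactive astrocyte genes (17 of 17 lower, median -0.80).

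Within the later groups the libraries were far apart. The median of the glucocorticoid-responsive list was 0.17, -0.63 and -1.22 from the R24h_C mean in R24h_T1, R24h_T2 and R24h_T3. In the control arm at 28 d it was -0.31, 0.42 and -0.10 in R28d_C1, R28d_C2 and R28d_C3, so libraries of 1 arm differed there by more than the sham arms did. Fkbp5 was at 13, 19.3 and 16.5 FPKM in R24h_C against 19.5, 4.93 and 3.72 FPKM in R24h_T, and at 6.03, 12.8 and 6.68 FPKM in R28d_C against 5.71, 7.87 and 9.2 FPKM in R28d_T. Plin4 was at 10.6, 13.7 and 21.8 FPKM against 26.7, 2.09 and 1.19 FPKM at 24 h. R24h_T1 was thus with the control arm and the other 2 far below it.

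A test of whether the arm difference itself changed between sham and ischemia called 0 of 14589 genes at 24 h (0%; 1593 at an unadjusted p under 0.05) and 1 of 14242 at 28 d (0.00702%; 690 unadjusted). The gene was Ube2o, which was at 17.4, 18.4 and 18.6 FPKM in R28d_C and at 25.9, 23.5 and 27.2 FPKM in R28d_T. It was higher in the Tiparp arm at 28 d and lower in sham, and the arm differences of 0.47 and -0.68 differed by 1.15 (limma adjusted p = 0.00165). For Fkbp5 the arm difference changed by -0.03 at 24 h (adjusted p = 0.986) and by 0.91 at 28 d (adjusted p = 0.956), and for Trf by -1.82 (adjusted p = 0.417) and -0.46 (adjusted p = 0.963). No other gene of the 28 had an arm difference that changed between sham and a later time at the threshold.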

How the data were processed

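Poly(A) RNA of 6 sham cortex libraries, 3 per arm, was compared, in strand-specific libraries per the labels' protocols. The deposited values are FPKM per gene, made by the authors. Per the submitters' processing notes HISAT, StringTie, edgeR and genome build mm9 were used, with no versions or roles. FPKM holds no read totals, so tests used log2(FPKM + 1), which shrinks differences of low genes. limma 3.58.1 (trend, R 4.3.3) was fitted to the 6 libraries for genes with at least 1 FPKM in at least 3, with Benjamini-Hochberg adjustment over all of them at 0.05. The code was tested on simulated data. Sham and later arms were compared with an interaction term over 12 libraries. Tiparp had an exact permutation test. Lists (21 of pathways, 17 of markers) are described by counts and medians, without set tests. The comparison, members and lists were chosen with earlier results of these data known. Genes named were Tiparp, every gene that passed, per list at most 4 that passed and otherwise 2 by smallest p, all glucocorticoid-responsive, PARP, aryl hydrocarbon receptor and choroid plexus genes, and the 10 largest differences that did not pass. The text gives part of these with values (some genes are not reported here), and names further list members and Cga after their values were seen. Promoters came from RefSeq (GRCm38.p6) and overlaps of gene models from another build than that of the data. Figures used Python 3.11.15 and matplotlib 3.10.9. Alternatives were another pseudocount (0.1), other filters, median-ratio scaling, a replicate block, array weights, robust moderation, all 18 libraries in 1 fit and libraries left out.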

Additional observations from a re-analysis of the deposited data

Results flagged for a closer look

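Ube2o was the single gene whose arm difference changed between conditions. The difference between the Tiparp arm and the control arm was -0.68 for sham and 0.47 for 28 d, as differences of log2(FPKM + 1), a change of 1.15 in the interaction term (limma adjusted p = 0.00165). All 3 libraries of the Tiparp arm lay below the control arm in sham, as in 8.85% of all tested genes. At 28 d all 3 lay above it, as in 3.37% of all genes there. Between the arms at 28 d alone no gene passed, with 0.994 the lowest limma adjusted p.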

How the results depend on the processing

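The 28 calls (11 higher, 17 lower) became 6 (3 and 3) with no filter on low values, 48 with array weights (32 lower), and 0 in both directions with all 18 libraries in 1 fit, where 401 genes had an unadjusted p under 0.05. Leaving out 1 library gave 5 to 52 calls, 4 to 22 higher and 1 to 30 lower. Without Sham_T1 and Sham_T2, which leaves 1 Sham_T library assumed to vary like the others, the calls were 4 higher and 17 lower, with 4 of the 28 kept. The cause of these shifts was not tested. Same-numbered libraries deviated together at 0.14, 0.02 and 0.03, and 1 of 3 pairs was the best match of its members. Libraries of other numbers deviated together at -0.08 to 0.04. So few values cannot show whether the numbers pair the samples. With the replicate block 6 genes passed, 3 higher and 3 lower, and the interaction at 28 d called 0. The interaction at 24 h called 0 to 1 when 1 library was left out. The Tiparp difference was -0.01 to 0.12 without 1 library, below 0 without Sham_C3. The difference of Cx3cr1 was -0.90 to 0.16 without 1 library, above 0 without Sham_T3, and those of Ttr and Pcdhgb1 were -0.56 and -0.17 without Sham_T1 and Sham_T2. Over 15 alternative settings the 28 genes gave 405 values, which all kept their direction, and passed in 222 of these. Of 570 list medians 50 moved by more than the spread, and the glucocorticoid-responsive median stayed between -0.38 and -0.51, with 0 to 6 of its members passing. The depth is unknown, so low genes carry no counting interval.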
